A study of Mus musculus with 12 samples.

Results

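The carboxylesterases of classes 1, 2 and 3 were examined in mouse liver RNA as 10 genes: Ces1b, Ces1c, Ces1d, Ces1e, Ces1f, Ces1g, Ces2a, Ces2c, Ces3a and Ces3b. They were taken by symbol from the gene table, which lists 19252 genes, and all 10 were found there. Values were deposited as TPM, a share of the transcripts of a library after division by transcript length. The liver libraries came from C57BL/6 mice, and 4 belonged to each of 3 groups. NAC_HFD mice ate a high fat diet and drank water with 2 g of N-acetylcysteine per litre, HFD mice ate the high fat diet alone, and NFD mice ate a normal fat diet. N-acetylcysteine is a cysteine donor from which cells make glutathione. The mice were fed these diets for 14 weeks, and the age label of 8 weeks does not say whether it means the start. The labels name no sex, pooling or source animal, so p-values measure only the spread between these libraries, which may be technical.

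Carboxylesterases are serine hydrolases of the endoplasmic reticulum that cleave ester, amide and thioester bonds. Hepatocytes are their richest source, and there they open ester drugs and environmental esters, and several also cut stored triglycerides and diglycerides whose fatty acids are then burned or repacked into very low density lipoprotein. Mice carry an expanded set of these genes in tandem clusters, so members are close paralogs. The division of reads between paralogs has no description among the sources used here, and differences between single genes of a class carry that uncertainty.

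In the RefSeq annotation of build GRCm38.p6 all 10 genes lie on chromosome 8, in 2 separate stretches. The Ces1 cluster runs from Ces1b (chr8:93056725-93080017) through Ces1c (chr8:93099015-93131283), Ces1d (chr8:93166072-93197804), Ces1e (chr8:93201218-93229631) and Ces1f (chr8:93256236-93279766) to Ces1g (chr8:93302369-93337209). Further along stand Ces2a (chr8:104734003-104741634), Ces2c (chr8:104847068-104854483), Ces3a (chr8:105048576-105061928) and Ces3b (chr8:105083733-105093929).

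The RefSeq promoter table of that build held the 250 bases before the start site for 7 of the 10 genes. The start site in that table lies inside the gene span given above for 3 of them, so that 77 bases of the Ces1b window, 22 of the Ces3b window and 12 of the Ces1e window fall within the gene. The table lists 2 windows for Ces1b, and the one listed first was used. Those of Ces2a and Ces1g are shown because these 2 genes had the smallest p-values between the diets. Capitals mark matches, on either strand, to AGGTCA (a nuclear receptor site), AACTTTG (part of many HNF4A sites), CCAAT and TATAAA; a match on the other strand appears as the reverse complement of the motif. The Ces2a window is chr8:104733753-104734002 on the plus strand, and the Ces1g window is chr8:93337210-93337459 on the minus strand.
Ces2a: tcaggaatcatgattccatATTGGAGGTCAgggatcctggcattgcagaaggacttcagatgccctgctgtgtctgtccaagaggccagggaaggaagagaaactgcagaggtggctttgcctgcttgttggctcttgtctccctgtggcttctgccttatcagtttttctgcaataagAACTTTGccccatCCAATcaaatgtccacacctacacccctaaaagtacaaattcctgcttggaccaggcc
Ces1g: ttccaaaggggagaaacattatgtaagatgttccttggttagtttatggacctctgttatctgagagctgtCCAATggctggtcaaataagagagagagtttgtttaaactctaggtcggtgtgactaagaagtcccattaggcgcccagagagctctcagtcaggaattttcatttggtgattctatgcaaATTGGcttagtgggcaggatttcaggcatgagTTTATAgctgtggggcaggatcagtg
Counted back from the start site, Ces2a had a reversed CCAAT at -231 directly before AGGTCA at -226, then AACTTTG at -71 and CCAAT at -58, with no TATAAA. Ces1g had CCAAT at -179, a reversed CCAAT at -58 and a reversed TATAAA at -26, with neither AGGTCA nor AACTTTG. Of 32851 mouse windows of the same length, 14.0% held AGGTCA, 3.31% AACTTTG, 33.8% CCAAT and 12.4% TATAAA. A match is a match of letters and was not tested as a binding site.

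Ces1b and Ces1c are shown as the most alike pair among the 7 windows, with their longest shared run of 58 bases in capitals. Both windows are on the minus strand, Ces1b at chr8:93079941-93080190 and Ces1c at chr8:93131284-93131533.
Ces1b: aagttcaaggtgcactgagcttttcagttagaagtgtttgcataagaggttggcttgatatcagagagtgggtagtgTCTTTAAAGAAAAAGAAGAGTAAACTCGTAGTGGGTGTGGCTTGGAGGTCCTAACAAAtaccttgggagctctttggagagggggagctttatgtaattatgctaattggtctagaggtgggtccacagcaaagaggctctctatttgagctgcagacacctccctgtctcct
Ces1c: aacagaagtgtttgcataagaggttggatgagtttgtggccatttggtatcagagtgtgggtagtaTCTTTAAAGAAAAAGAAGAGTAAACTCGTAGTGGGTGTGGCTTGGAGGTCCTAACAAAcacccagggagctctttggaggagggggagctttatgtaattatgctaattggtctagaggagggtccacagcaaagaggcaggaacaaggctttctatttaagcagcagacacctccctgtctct
Aligned end to end, they were identical at 213 of 277 columns, or 76.9%. The windows of Ces2a and Ces2c came next at 67.0%, and the other pairs ranged from 46.2% to 56.6%. Mean levels over the 12 libraries were 1130 TPM for Ces1c and 30.1 TPM for Ces1b.

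**Figure D1:**
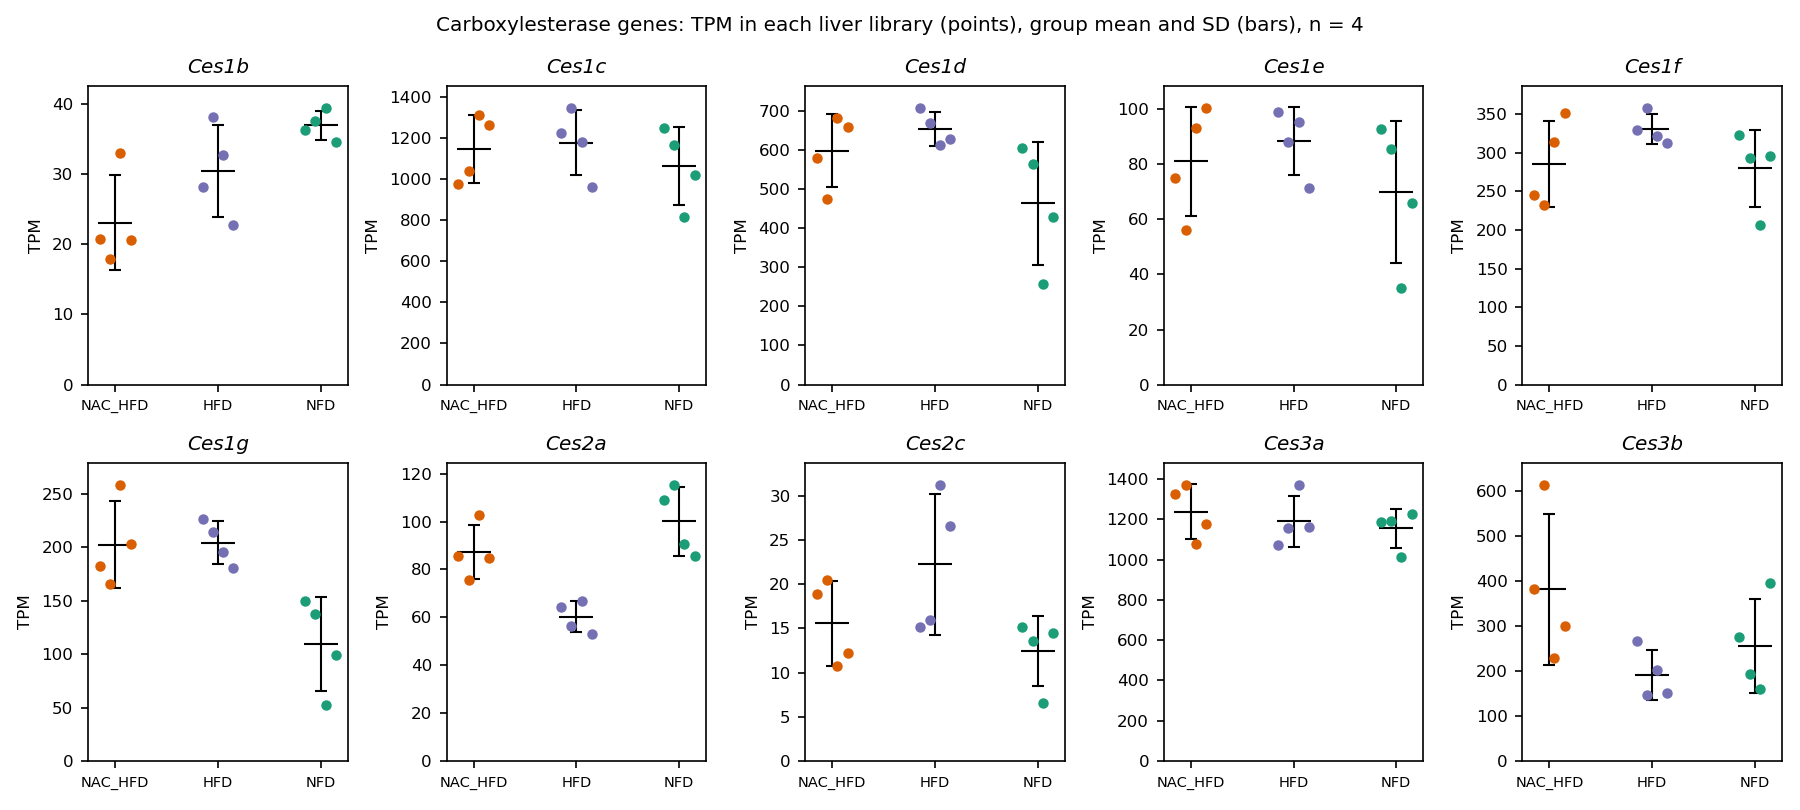
TPM of each of the 10 carboxylesterase genes in every liver library (points), with the group mean and SD as bars, for NAC_HFD, HFD and NFD (n = 4 each; every vertical axis starts at 0). Ces2a is lowest in the HFD libraries (53.23 to 66.92 TPM) and Ces1g is lowest in the NFD libraries (52.44 to 149.93 TPM).

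The family was abundant and unevenly used. Over the 12 libraries Ces3a averaged 1194 TPM and Ces1c 1130 TPM, followed by Ces1d at 572 TPM, Ces1f at 299 TPM, Ces3b at 276 TPM and Ces1g at 172 TPM. Ces2a at 82.5 TPM, Ces1e at 79.8 TPM, Ces1b at 30.1 TPM and Ces2c at 16.7 TPM closed the order. The library ranges of neighbours in this order overlapped for 8 of 9 pairs, all except Ces1c over Ces1d, so most single steps do not exceed the spread of the libraries. Within libraries, Ces1c was above Ces1d and Ces1d above Ces1f in 12 of 12, while Ces3a was above Ces1c and Ces2a above Ces1e in 7 of 12, and Ces1f was above Ces3b and Ces3b above Ces1g in 9 of 12. In HFD livers the means of the last pair stood in the other order, with 191 TPM for Ces3b and 204 TPM for Ces1g. The 10 genes together held 4061 ± 120 TPM in NAC_HFD livers, 3950 ± 256 TPM in HFD livers and 3546 ± 602 TPM in NFD livers (SD, n = 4 each). NFD replicate 3 was lowest of all at 2675 TPM.

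All libraries carried hepatocyte RNA at a high level, with a summed 53914 to 72434 TPM for 7 hepatocyte markers (albumin, transthyretin and others) in NAC_HFD, 51158 to 69334 TPM in HFD and 56555 to 61992 TPM in NFD. In bulk liver, fewer cells of a type and less RNA per cell cannot be told apart. Markers of other cells were far lower. Kupffer cell and macrophage markers (12 genes) summed to 85.0 to 172 TPM in NAC_HFD, 124 to 314 TPM in HFD and 97.1 to 181 TPM in NFD. Adipose markers (7 genes in the table) summed to 7.35 to 13.3 TPM in NAC_HFD, 19.8 to 50.3 TPM in HFD and 7.88 to 10.6 TPM in NFD. Within that list Cfd averaged 0.912, 12.2 and 0.200 TPM in these groups, and the adipocyte hormone Adipoq 0.00, 0.0450 and 0.0175 TPM. Intestinal epithelium markers (5 genes in the table) summed to 141 to 186, 212 to 227 and 133 to 173 TPM in the same order, and kidney tubule markers (3 genes in the table) never exceeded 0.38 TPM. Sinusoidal endothelial (109 to 138, 125 to 155 and 124 to 143 TPM), stellate and fibroblast (101 to 147, 114 to 134 and 96.6 to 142 TPM), cholangiocyte (15.4 to 20.3, 19.3 to 22.4 and 16.4 to 24.1 TPM) and T, NK and B cell lists (2.40 to 5.03, 2.75 to 4.57 and 2.29 to 3.92 TPM) overlapped between all 3 groups. The part of other cells in the results below was not tested.

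The sum of a list of 13 liver genes that are higher in male mice divided the libraries inside both high fat groups. The list summed to 31743, 35361, 15411 and 13588 TPM in NAC_HFD replicates 1 to 4, to 9731, 12577, 29982 and 29859 TPM in HFD replicates 1 to 4, and to 23923 to 29810 TPM in NFD. A list of 14 genes higher in female mice summed to 53.6, 47.3, 186 and 112 TPM in NAC_HFD, to 223, 187, 67.6 and 94.5 TPM in HFD, and to 55.9 to 76.5 TPM in NFD. The 2 lists thus stood opposite each other, with NAC_HFD replicates 3 and 4 and HFD replicates 1 and 2 low in the first and high in the second. The major urinary protein genes Mup7 and Mup20 alone held 85.9% to 94.5% of the male-biased sum. Of the 13 genes, 7 separated the same pairs of libraries in the direction of the sum in both high fat groups. The pairs were chosen by that sum, and Mup7 and Mup20 are among the 7, so this count was partly fixed beforehand. Others did not separate them so, such as Cyp2u1. It had 26.39 and 25.64 TPM in NAC_HFD replicates 1 and 2 and 56.50 and 36.12 TPM in replicates 3 and 4. Of the 14 female-biased genes, 7 separated these pairs of libraries in the direction of their sum in both groups. Only 5 of the 14 had at least 1 TPM in at least 4 libraries, and Acot3 and Cyp2b9 held 12.4% to 89.3% of the sum. The share of all genes that separate these pairs was not computed, for the lists or for the members below.

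With the high fat diet, Ces2a fell and no other member passed the test. Ces1g, Ces1d and Ces2c had higher gene values in every HFD library than in any NFD library without passing it. By limma, on log2(TPM + 1) values of the 11376 genes with at least 1 TPM in at least 4 libraries, 1 of the 10 members passed an adjusted p of 0.05 in HFD against NFD, where 2.78% of all tested genes did (249 higher and 67 lower). That split depends on scaling, since 190 genes were higher and 101 lower after rescaling within the gene table, 274 and 121 with median-of-ratios scaling, and 259 and 160 with quantile normalization. At an unadjusted p under 0.05 there were 4 of 10 members, against 19.1% of genes. Groups did not overlap for 4 of 10, against 12.4% of genes. The median log2 fold change of the members was 0.21, against 0.01 over all genes.

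Ces2a (ENSMUSG00000055730), a liver and intestinal hydrolase that acts on diglycerides and monoglycerides as well as on drugs, had 64.50, 56.35, 66.92 and 53.23 TPM in HFD libraries, against 109.11, 115.45, 90.76 and 85.46 TPM in NFD libraries. Every HFD library lay below every NFD library. The means were 60.2 ± 6.51 TPM in HFD and 100.2 ± 14.4 TPM in NFD (SD, n = 4 each), a log2 fold change of -0.72 (SE 0.12, limma adjusted p = 0.00959). The call held when any 1 of the 8 compared libraries was left out, with limma adjusted p between 0.0119 and 0.0414, and under the 10 other settings tried. The HFD libraries low in the male-biased list had 64.50 and 56.35 TPM of Ces2a, and those high in it had 66.92 and 53.23 TPM, so the values of both pairs overlapped.

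Ces1g (ENSMUSG00000057074), whose loss in mice is known to raise blood lipids and liver fat, had 226.14, 213.98, 195.75 and 180.36 TPM in HFD libraries, against 149.93, 137.04, 52.44 and 98.71 TPM in NFD libraries. The groups did not overlap, but the NFD libraries were widely spread. Its log2 fold change was 0.99 (SE 0.27, limma adjusted p = 0.0730). Without NFD replicate 3 it was 0.68 (limma adjusted p = 0.0519), the lowest adjusted p of the 8 fits that left out 1 library. The highest was 0.186, without HFD replicate 1, and the 10 other settings gave 0.0633 to 0.121.

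Ces1d, also called triacylglycerol hydrolase, mobilises stored triglyceride for lipoprotein assembly. It had 706.88, 669.85, 612.34 and 626.76 TPM in HFD libraries, against 604.71, 563.71, 257.47 and 428.62 TPM in NFD libraries. The highest NFD library nearly reached the lowest HFD library, and NFD replicate 3 was far below the rest. The log2 fold change was 0.57 (SE 0.22, limma adjusted p = 0.182), and 0.31 without NFD replicate 3 (limma adjusted p = 0.278). Only the gene value separated the diets, since the coding transcript ENSMUST00000034172 had 356.18 to 432.94 TPM in HFD and 122.45 to 382.35 TPM in NFD. ENSMUST00000129987, a Ces1d transcript listed as lncRNA, did not overlap (220.23 to 242.72 TPM in HFD and 103.98 to 201.30 TPM in NFD).

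Ces2c, a triglyceride and diglyceride hydrolase of mouse liver, had 15.16, 15.91, 31.24 and 26.61 TPM in HFD libraries, against 15.11, 13.56, 6.52 and 14.52 TPM in NFD libraries. HFD replicates 1 and 2 sat at the level of the upper NFD libraries, and HFD replicates 3 and 4 were clearly above. The log2 fold change was 0.79 (SE 0.31, limma adjusted p = 0.192). Within HFD the higher pair of Ces2c values fell in the libraries with the higher sums of the male-biased list, and in NAC_HFD likewise, with 18.87 and 20.43 TPM in replicates 1 and 2 and 10.71 and 12.24 TPM in replicates 3 and 4. The part of that list's division in the Ces2c values was not tested.

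The other 6 members overlapped between the diets. Ces1e, known as egasyn because it holds beta-glucuronidase in the endoplasmic reticulum, averaged 88.5 ± 12.3 TPM in HFD and 69.8 ± 25.8 TPM in NFD. Ces1c, the carboxylesterase that mouse liver secretes into plasma, averaged 1178 ± 160 TPM in HFD and 1064 ± 191 TPM in NFD. Ces1f, a hydrolase found with Ces1d in the endoplasmic reticulum, averaged 331 ± 19.4 TPM in HFD and 280 ± 50.3 TPM in NFD. These 3 had log2 fold changes of 0.42, 0.16 and 0.26, none past the threshold (limma adjusted p = 0.442, 0.615 and 0.383). Ces1b averaged 30.4 ± 6.56 TPM in HFD and 36.9 ± 2.02 TPM in NFD, and Ces3b 191 ± 55.5 TPM in HFD and 256 ± 105 TPM in NFD. Ces3a had the smallest difference of the 10, with 1190 ± 126 TPM in HFD livers and 1155 ± 96.8 TPM in NFD livers, with a log2 fold change of 0.04 (limma adjusted p = 0.877).

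As shares of the family total, Ces2a made up 1.52% ± 0.114 in HFD and 2.87% ± 0.456 in NFD, while Ces1g made up 5.16% ± 0.351 in HFD and 2.99% ± 0.825 in NFD (SD, n = 4 each). For both genes the 2 diets did not overlap in these shares.

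**Figure D2:**
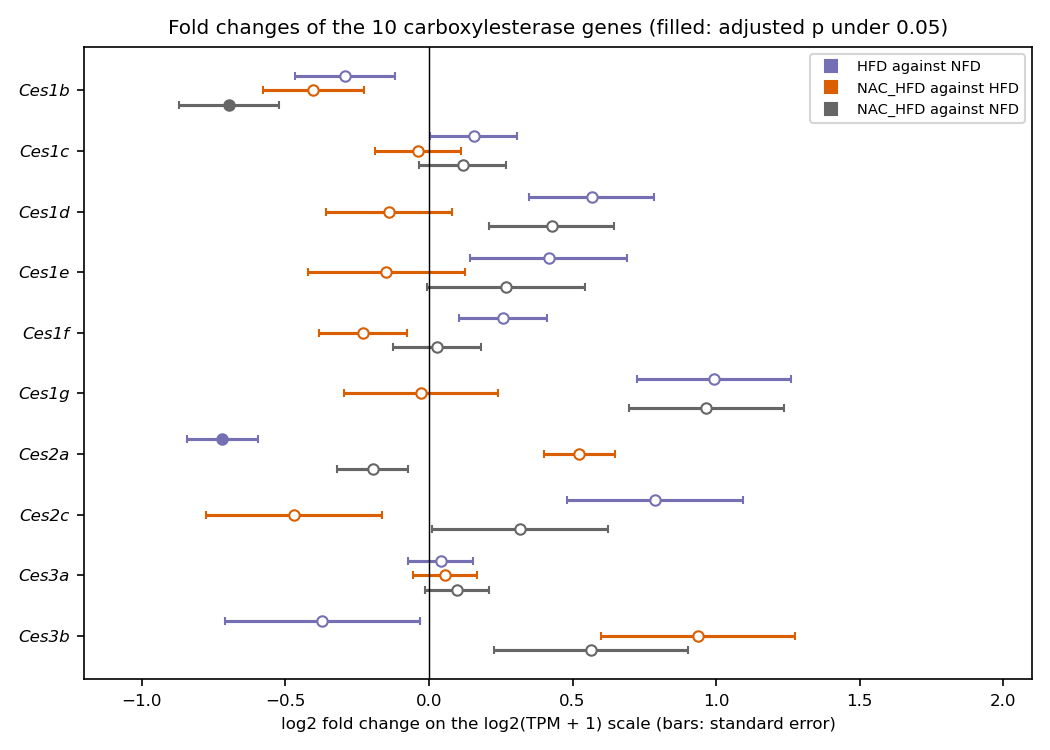
Log2 fold changes on the log2(TPM + 1) scale (points) with their standard errors (bars) for the 10 carboxylesterase genes in HFD against NFD, NAC_HFD against HFD and NAC_HFD against NFD. Filled points passed a limma adjusted p of 0.05, which holds for Ces2a in HFD against NFD (-0.72) and Ces1b in NAC_HFD against NFD (-0.70).

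With N-acetylcysteine added to the high fat diet, no member passed the test. By limma 0 of the 10 members had an adjusted p under 0.05 in NAC_HFD against HFD, as did 0.00% of all tested genes, while 3 of 10 members had an unadjusted p under 0.05, against 16.4% of genes. Groups did not overlap for 1 of 10, against 10.2% of genes. The median log2 fold change of the members was -0.09, against -0.08 over all genes. This comparison shares the HFD libraries with the diet comparison, so a low or high HFD value enters both with opposite sign.

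Ces2a had 85.47, 75.80, 102.79 and 84.73 TPM in NAC_HFD libraries, against 64.50, 56.35, 66.92 and 53.23 TPM in HFD libraries. Each NAC_HFD library lay above all HFD libraries. The mean was 87.2 ± 11.3 TPM in NAC_HFD and 60.2 ± 6.51 TPM in HFD, with a log2 fold change of 0.52 (SE 0.12) that did not pass the threshold (limma adjusted p = 0.0834). With 1 library left out the limma adjusted p ranged from 0.0789 to 0.247.

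Ces3b had 382.36, 613.36, 228.67 and 300.12 TPM in NAC_HFD libraries, against 265.85, 147.05, 201.14 and 151.14 TPM in HFD libraries. The groups overlapped at the lowest NAC_HFD and the highest HFD library, and NAC_HFD replicate 2 stood well above the others. The log2 fold change was 0.94 (SE 0.34, unadjusted p = 0.0177, limma adjusted p = 0.210). Ces1b, the third member with an unadjusted p under 0.05, averaged 23.0 ± 6.77 TPM in NAC_HFD livers and 30.4 ± 6.56 TPM in HFD livers (log2 fold change -0.40, limma adjusted p = 0.274).

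Ces1g overlapped between the high fat groups, with 202 ± 40.5 TPM in NAC_HFD livers and 204 ± 20.1 TPM in HFD livers, with a log2 fold change of -0.03 (SE 0.27, limma adjusted p = 0.974). Ces1d averaged 598 ± 94.2 TPM in NAC_HFD livers and 654 ± 42.9 TPM in HFD livers, and Ces1f 286 ± 56.3 TPM in NAC_HFD and 331 ± 19.4 TPM in HFD. Ces1c (1148 ± 165 TPM in NAC_HFD and 1178 ± 160 TPM in HFD) and Ces1e (81.1 ± 19.9 TPM in NAC_HFD and 88.5 ± 12.3 TPM in HFD) also overlapped. Ces2c averaged 15.6 ± 4.80 TPM in NAC_HFD livers and 22.2 ± 7.96 TPM in HFD livers, and Ces3a 1238 ± 136 TPM in NAC_HFD and 1190 ± 126 TPM in HFD.

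Set against the normal fat diet, mice on the high fat diet with N-acetylcysteine had lower Ces1b, a call that most single libraries could undo. By limma 1 of the 10 members passed an adjusted p of 0.05 in NAC_HFD against NFD, where 5.28% of all tested genes did (200 higher and 401 lower, but 363 and 269 with median-of-ratios scaling and 314 and 294 with quantile normalization). The members' median log2 fold change was 0.19, against -0.07 over all genes. At an unadjusted p under 0.05 there were 2 of 10 members, Ces1b and Ces1g, against 22.6% of genes.

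Ces1b (ENSMUSG00000078964) had 20.67, 17.85, 32.98 and 20.55 TPM in NAC_HFD libraries, against 36.24, 37.48, 39.36 and 34.56 TPM in NFD libraries. All 4 NAC_HFD values were below the NFD values, and NAC_HFD replicate 3 came close to them. The log2 fold change was -0.70 (SE 0.17, limma adjusted p = 0.0359). When 1 of the 8 libraries was left out, the call was lost in 7 of 8 cases, each time except without NAC_HFD replicate 3, and the limma adjusted p ranged from 0.0139 to 0.0958. It was also lost with no floor on low values (adjusted p = 0.0781) and with the 2 groups fitted alone (adjusted p = 0.0614).

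Ces1g had 182.11, 165.37, 258.49 and 203.16 TPM in NAC_HFD libraries, against 149.93, 137.04, 52.44 and 98.71 TPM in NFD libraries. These gene values did not overlap between the groups, but those of the coding transcript ENSMUST00000044602 did. It had 63.34 to 122.62 TPM in NAC_HFD and 26.38 to 76.26 TPM in NFD. The log2 fold change of the gene was 0.97 (SE 0.27, limma adjusted p = 0.0599). The gene passed the threshold in 3 of 10 other settings, with median-of-ratios scaling (limma adjusted p = 0.0411), quantile normalization (0.0442) and plain eBayes (0.0497). With the 2 groups fitted alone the limma adjusted p was 0.144. Of 8 fits that left out 1 library, only that without NFD replicate 1 passed (0.0471). The highest limma adjusted p among them was 0.143, without NAC_HFD replicate 3. Without NFD replicate 3 the log2 fold change was 0.65 (adjusted p = 0.0551). Ces2a, with 87.2 ± 11.3 TPM in NAC_HFD livers and 100.2 ± 14.4 TPM in NFD livers, overlapped between these groups (log2 fold change -0.20, limma adjusted p = 0.368).

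**Figure D3:**
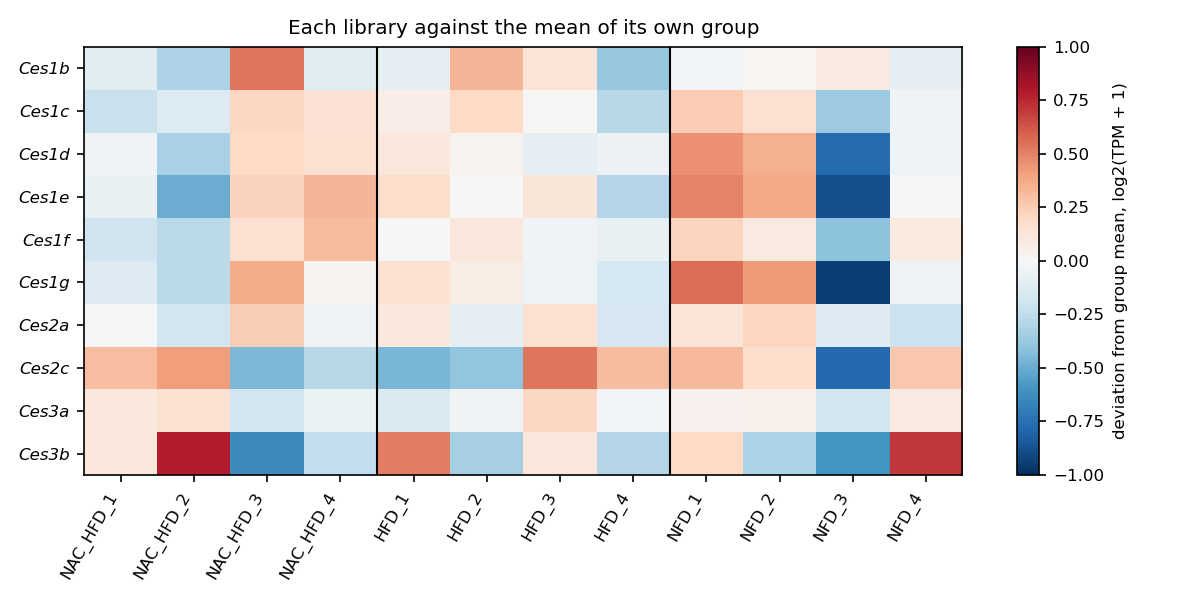
Deviation of each library (columns) from the mean of its own group, on the log2(TPM + 1) scale, for the 10 carboxylesterase genes (rows), with groups divided by vertical lines. NFD replicate 3 is low from Ces1c to Ces1g and in Ces2c and Ces3b. Ces2c is low in NAC_HFD replicates 3 and 4 and in HFD replicates 1 and 2.

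Within groups, 5 neighbouring Ces1 genes varied together. After each group's mean was removed, the 10 pairs among Ces1c, Ces1d, Ces1e, Ces1f and Ces1g had Pearson r from 0.807 to 0.976 over the 12 libraries (median 0.864). All 45 pairs of members, these 10 included, ranged from -0.541 to 0.976 with a median of 0.249. Ces1b of the same cluster had r from 0.154 to 0.510 with the 5. This r was not computed for pairs of other genes. The points behind each r share libraries and the fixed TPM total, and close paralogs may share reads. NFD replicate 3 was the lowest NFD library for each gene from Ces1c to Ces1g, and also for Ces2c, Ces3a and Ces3b. In the high fat groups, Ces1c, Ces1d, Ces1f and Ces1g were higher in the libraries low in the male-biased list, NAC_HFD replicates 3 and 4 and HFD replicates 1 and 2, than in the others of their group. Ces1d, for example, had 682.17 and 658.93 TPM in NAC_HFD replicates 3 and 4 and 579.23 and 473.54 TPM in replicates 1 and 2, while HFD replicates 1 and 2 had the 2 highest HFD values given above. Ces1e divided in this way in NAC_HFD but overlapped in HFD, and Ces2c and Ces3a divided the opposite way in both groups. The part of that list's division in this co-variation was not tested, and the share of all genes dividing so was not computed. Ces1b did not follow NFD replicate 3, with 39.36 TPM there, the highest of its group. Outside the cluster, Ces2c and Ces3a had r = 0.910 on the same measure.

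The gene values include transcripts that the deposited tables list as lncRNA, and for some members these made up much of the level. How reads were divided between transcripts of 1 gene is not described in the sources used here either, and these shares carry that uncertainty. Within NFD the share for Ces3b ran from 7.32% to 32.3%. Transcripts listed as lncRNA held 55.8% ± 4.19 of Ces1g TPM in NAC_HFD, 51.1% ± 0.983 in HFD and 48.3% ± 1.61 in NFD (SD, n = 4 each). For Ces1d the share was 38.4% ± 4.57 in NAC_HFD, 40.8% ± 1.52 in HFD and 43.0% ± 6.81 in NFD. Ces1b and Ces2a had no such transcript, so their gene values were mRNA alone.

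**Figure D4:**
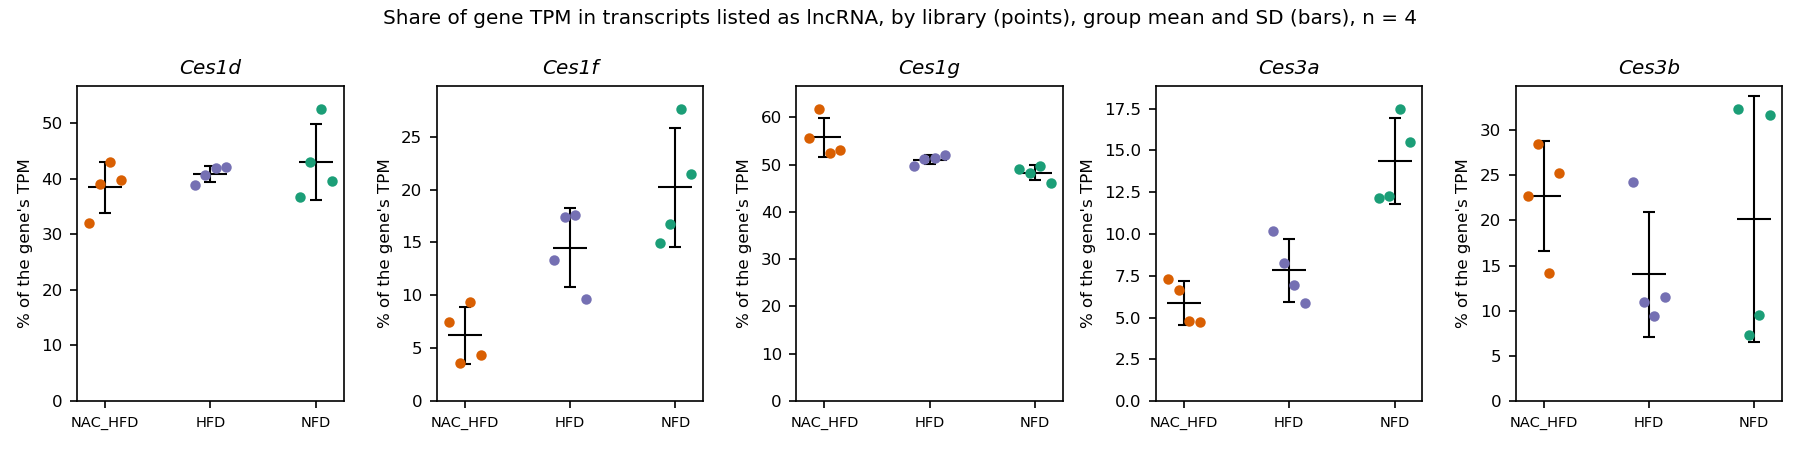
Percent of the TPM of Ces1d, Ces1f, Ces1g, Ces3a and Ces3b that came from transcripts listed as lncRNA, in each library (points), with the group mean and SD as bars (n = 4 per group). The share for Ces1f is lowest in NAC_HFD (3.59% to 9.41%) and that for Ces3a is highest in NFD (12.2% to 17.5%).

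For Ces1c, Ces1f, Ces1g and Ces3a this share separated groups whose gene totals overlapped, and no test was run on shares. How often it does so over all genes was not computed, so these separations are only a description. For Ces1d, Ces1e, Ces2c and Ces3b it overlapped between all 3 groups. For Ces1g it ranged from 52.56% to 61.70% in NAC_HFD, from 49.73% to 52.06% in HFD and from 46.03% to 49.69% in NFD, so that no 2 groups overlapped, although the gaps between them were narrow and the NAC_HFD and HFD gene totals overlapped. For Ces1c it was small, at 1.71% to 2.87% in NAC_HFD, 1.73% to 2.43% in HFD and 2.79% to 3.25% in NFD, and only HFD and NFD did not overlap. For Ces1f it was 7.47%, 3.59%, 9.41% and 4.38% in NAC_HFD libraries, against 13.4%, 17.4%, 17.6% and 9.68% in HFD libraries and 14.9%, 16.8%, 27.6% and 21.5% in NFD libraries. All NAC_HFD libraries lay below the other 2 groups, HFD replicate 4 by a narrow margin. For Ces3a it was 7.29%, 6.64%, 4.80% and 4.71% in NAC_HFD, 10.2%, 8.29%, 6.92% and 5.87% in HFD, and 12.2%, 12.3%, 17.5% and 15.5% in NFD. NFD stood above both high fat groups, which overlapped each other.

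Of the 5 lncRNA-listed transcripts of Ces1f, 1 passed the test, with low values in NAC_HFD. ENSMUST00000151261 had 4.13, 1.45, 4.03 and 2.78 TPM in NAC_HFD libraries, against 9.32, 13.46, 13.68 and 6.16 TPM in HFD libraries and 10.87, 12.47, 13.58 and 13.83 TPM in NFD libraries. NAC_HFD overlapped neither of the other groups. On the log2(TPM + 0.1) scale the log2 fold change was -2.10 in NAC_HFD against NFD (limma adjusted p = 0.0430) and -1.79 in NAC_HFD against HFD (limma adjusted p = 0.132). ENSMUST00000133879 averaged 8.02 TPM in NAC_HFD, 22.4 TPM in HFD and 24.2 TPM in NFD, ENSMUST00000156737 averaged 1.86, 6.58 and 7.70 TPM, and ENSMUST00000124066 averaged 0.780, 2.31 and 2.92 TPM in the same groups. Their log2 fold changes in NAC_HFD against HFD were -1.66, -2.0 and -1.48, none past the threshold (limma adjusted p = 0.209, 0.224 and 0.321). The remaining one, XR_387740.1, differed less, with means of 4.13 TPM in NAC_HFD, 6.34 TPM in HFD and 7.08 TPM in NFD. Its log2 fold change in NAC_HFD against HFD was -0.63 (limma adjusted p = 0.328). The coding transcript of Ces1f, ENSMUST00000034178, averaged 268 TPM in NAC_HFD, 282 TPM in HFD and 225 TPM in NFD, with none of its comparisons past the threshold.

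Of the 15 tested lncRNA-listed transcripts from 8 members, limma called 0 in HFD against NFD (3 at an unadjusted p under 0.05, against 8.02% of all such transcripts), where 0.0278% passed the threshold. In NAC_HFD against HFD it called 0 (7 at an unadjusted p under 0.05, against 10.1%), where 0.0317% passed. In NAC_HFD against NFD it called 1 (8 at an unadjusted p under 0.05, against 13.3%), where 0.0992% passed. All 5 such transcripts of Ces1f were among the 7 and among the 8, so these 2 counts rest largely on 1 gene. The members' median log2 fold changes were -0.30, -0.41 and -0.76, against -0.09, -0.11 and -0.19 over all tested lncRNA transcripts. The single call was lost with median-of-ratios scaling, with the replicate number as a block and in 5 of 8 fits that left out 1 library, those without any 1 NFD library or without NAC_HFD replicate 4 (adjusted p up to 0.121).

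The authors' deposited table for lncRNA in NAC_HFD against HFD lists 5 of these transcripts, and their other 3 tables list 0 transcripts of the members. In the authors' deposited table ENSMUST00000151261 of Ces1f has a log2 fold change of -1.64 with an adjusted p-value of 0.000393, and ENSMUST00000156737 has -1.67 with 0.0370. The authors' deposited table also gives ENSMUST00000133879 at -1.32 (0.0781), ENSMUST00000124066 at -1.45 (0.313) and the Ces3b transcript ENSMUST00000173838 at 1.79 (0.390). The authors' test for that table was not named in the sources used here.

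Ces3a ENSMUST00000212329, listed as lncRNA, had 85.75, 80.01, 46.90 and 48.35 TPM in NAC_HFD, 100.30, 87.22, 86.70 and 63.59 TPM in HFD, and 134.16, 137.84, 169.10 and 175.68 TPM in NFD. Both high fat groups lay wholly below NFD. The log2 fold change was -0.88 in HFD against NFD (limma adjusted p = 0.321) and -1.28 in NAC_HFD against NFD (limma adjusted p = 0.0590, and 0.0310 with a floor of 1 TPM and a pseudocount of 1). The main coding transcript of Ces3a, ENSMUST00000093222, averaged 978 TPM in NAC_HFD, 900.0 TPM in HFD and 815 TPM in NFD, and overlapped between the groups.

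Among the 15 tested mRNA transcripts of the members, limma called 1 in HFD against NFD (4 at an unadjusted p under 0.05, against 13.9% of all mRNA transcripts), where 0.621% of all passed. It called 0 in NAC_HFD against HFD (3 at an unadjusted p under 0.05, against 12.1% of all), where 0.00550% passed, and 0 in NAC_HFD against NFD (2 at an unadjusted p under 0.05, against 17.5% of all), where 1.41% passed. The called one was Ces2a ENSMUST00000034346, the main Ces2a transcript, at 61.24, 53.19, 64.33 and 49.37 TPM in HFD libraries, against 106.03, 111.99, 88.06 and 83.95 TPM in NFD libraries. The HFD values were all below the NFD values, as for the gene. Its log2 fold change was -0.76 (limma adjusted p = 0.0249), and the call was lost in 4 of 8 fits that left out 1 library (without NFD replicate 1 or without HFD replicates 1, 2 or 4, highest adjusted p 0.0963). The transcript and gene values come from the same reads and do not count as separate evidence. For Ces1g, the coding transcript ENSMUST00000044602 averaged 90.5 TPM in NAC_HFD, 99.9 TPM in HFD and 56.7 TPM in NFD, and the lncRNA-listed NONMMUT152303.1 averaged 112 TPM, 104 TPM and 52.8 TPM. In NAC_HFD against NFD the coding transcript overlapped (log2 fold change 0.73, limma adjusted p = 0.224), while NONMMUT152303.1 did not (log2 fold change 1.18, limma adjusted p = 0.107).

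Other carboxylesterase genes were read out of the same fit. Of 9 further symbols, 6 were in the table and 4 were tested. Over all genes 2.78% passed in HFD against NFD, 0.00% in NAC_HFD against HFD and 5.28% in NAC_HFD against NFD. Ces2e, a neighbour of Ces2a in class 2, rose to 124.8 ± 8.91 TPM in HFD, against 64.5 ± 17.7 TPM in NFD (log2 fold change 0.98, limma adjusted p = 0.0236), with 93.3 ± 22.9 TPM in NAC_HFD. Ces2g rose in NAC_HFD, at 18.8 ± 2.48 TPM against 13.0 ± 2.99 TPM in NFD (log2 fold change 0.52, limma adjusted p = 0.0426), with 17.4 ± 0.882 TPM in HFD. No gene of the 4 passed in NAC_HFD against HFD. Ces2a and Ces2e, 2 members of 1 class, thus passed the diet comparison in opposite directions. The uncertainty over the division of reads between paralogs holds for them too. Unlike Ces2a, Ces2e was not followed through the alternative settings or with libraries left out.

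Regulators were counted likewise. Of 16 nuclear receptors and hepatocyte transcription factors, all tested, 1 was higher and 0 were lower in HFD against NFD (2.78% of all genes passed). In NAC_HFD against HFD 0 passed (0.00% of all genes), and in NAC_HFD against NFD 1 was higher and 1 lower (5.28% of all genes passed). The higher one in both cases was Nr1i2, the pregnane X receptor that senses drugs, at 33.2 ± 2.08 TPM in NAC_HFD, 34.9 ± 1.23 TPM in HFD and 21.9 ± 4.17 TPM in NFD (limma adjusted p = 0.0116 for NAC_HFD against NFD and 0.00854 for HFD against NFD). Nfe2l2, the oxidative stress factor NRF2, fell to 23.4 ± 2.67 TPM in NAC_HFD, against 31.8 ± 2.77 TPM in NFD (log2 fold change -0.43, limma adjusted p = 0.0294). Nr1i3, the constitutive androstane receptor, averaged 119 ± 33.5 TPM in NAC_HFD livers and 213 ± 24.7 TPM in HFD livers (log2 fold change -0.87, limma adjusted p = 0.0522), and Ppara, the fatty acid receptor, 107 ± 7.29 TPM in HFD and 70.2 ± 15.4 TPM in NFD (0.63, limma adjusted p = 0.0675). The list's median log2 fold changes were 0.06, -0.11 and 0.04 in HFD against NFD, NAC_HFD against HFD and NAC_HFD against NFD, against 0.01, -0.08 and -0.07 over all genes.

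Of 18 tested neutral lipid hydrolases and cofactors, which share substrates with the carboxylesterases, 0 passed by limma in HFD against NFD and 0 in NAC_HFD against HFD. Over all genes 2.78% and 0.00% passed in these comparisons, and 5.28% in NAC_HFD against NFD. Only Pnpla6, a lysophospholipase, passed in NAC_HFD against NFD, with 13.7 ± 2.40 TPM in NAC_HFD livers and 20.4 ± 1.31 TPM in NFD livers (log2 fold change -0.55, limma adjusted p = 0.0293). Mgll, the monoglyceride lipase, averaged 89.4 ± 6.52 TPM in HFD and 70.5 ± 7.63 TPM in NFD (limma adjusted p = 0.0899). Abhd6, another monoglyceride lipase, averaged 17.0 ± 2.53 TPM in NAC_HFD livers and 24.7 ± 0.527 TPM in HFD livers (limma adjusted p = 0.0847). The median log2 fold changes of the list were 0.12, -0.11 and 0.03 in the 3 comparisons.

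The genes whose log2(TPM + 1) values followed Ces2a most closely over the 12 libraries were Cib3 (Pearson r = 0.896), Mri1 (r = 0.885) and Ddx10 (r = 0.868). Cib3 was low throughout, at 0.49 to 1.21 TPM in HFD libraries and 2.49 to 5.52 TPM in NFD libraries. These r values include the differences between group means and are a description of 12 points.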

How the data were processed

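The authors deposited TPM per gene, per mRNA transcript and per lncRNA transcript for 12 liver libraries, and tables of fold changes as a ratio and as log2, with raw and adjusted p-values, as the file headers name them. The submitters' processing notes name fastp, HISAT, RSEM and build GRCm38, without versions or settings. TPM keeps no depth, so library depth is unknown and no counting interval was given. The gene table summed to 656154 to 713716 TPM per library, with 10864 to 11316 genes at 1 TPM or more. Each member's gene value equalled the sum of its mRNA and lncRNA transcripts within 0.02 TPM.

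Groups came from the sample labels. In R 4.3.3, limma 3.58.1 (lmFit and robust eBayes with a mean trend) was fitted to log2(TPM + 1) over all 12 libraries (9 residual degrees of freedom) for 11376 of 19252 genes and 18183 of 53634 mRNA transcripts with at least 1 TPM in at least 4 libraries. For lncRNA transcripts it was fitted to log2(TPM + 0.1) with a floor of 0.1 TPM (25205 of 52170), a fit added after seeing the data. Fold changes understate those of low genes. Tests were two-sided, and Benjamini-Hochberg adjustment ran over each whole table with a threshold of 0.05. The fit was tested on simulated data. Members and lists were chosen with earlier results of these data known. All members, list genes past the threshold or up to 3 with the smallest p, and member transcripts past the threshold were named. Single transcripts followed through the alternatives were the highest mRNA transcript of each member and lncRNA transcripts averaging at least 5 TPM. That rule was set after seeing the values. Not all of these transcripts are named, and ENSMUST00000124066 of Ces1f is given although it averaged less. Alternatives were the floor, pseudocount, scaling, a replicate block, the compared groups alone and leaving out each library.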

Additional observations from a re-analysis of the deposited data

Results flagged for a closer look

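Each group of 4 libraries was examined for a library whose gap to its nearest neighbour took up most of the group's range. Of 66 groups examined, 2 met Dixon's 95% criterion, and chance gives about 1 in 20. The lncRNA-listed Ces1d transcript ENSMUST00000148340 had 26.11 TPM in NAC_HFD replicate 3, where the other NAC_HFD libraries had 10.97 to 13.51 TPM. The lncRNA-listed Ces3b transcript ENSMUST00000173838 had 64.48 TPM in HFD replicate 1, where the other HFD libraries had 16.04 to 18.90 TPM.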

How the results depend on the processing

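The fall of Ces2a in HFD against NFD kept its direction and its side of the threshold under every alternative tried. Depth is unknown, so no value can be weighed by it, and all causes below were not tested. Members past the threshold in NAC_HFD against NFD numbered 1, but 0 with no floor, 0 with the 2 groups fitted alone, 2 with median-of-ratios scaling, 2 with quantile normalization, 2 with eBayes without trend or robust, and 0 to 1 with 1 library left out. Over all genes, HFD against NFD gave 316 calls, 168 with no floor and 90 to 298 with 1 library left out. NAC_HFD against HFD gave 0 calls, 24 with pseudocount 5, 3 with the replicate block and 0 to 64 with 1 library left out. NAC_HFD against NFD gave 601 calls, 289 with no floor, 188 with the 2 groups alone and 211 to 618 with 1 library left out. For members' mRNA transcripts the count was 1 in HFD against NFD, 0 with the replicate block and 0 to 1 with 1 library left out, and 0 to 1 in NAC_HFD against NFD. For lncRNA transcripts, alternatives chosen after seeing the data gave 4 calls in NAC_HFD against NFD with a floor of 1 TPM and pseudocount 1, 0 with median-of-ratios scaling, 0 with the replicate block and 0 to 3 with 1 library left out, and 0 to 1 in NAC_HFD against HFD.

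Same-numbered libraries of different groups did not deviate together more than differently numbered ones. The former had r from -0.173 to 0.179 (12 pairs, 2 over 0.1), the latter from -0.247 to 0.219 (36 pairs, 8 over 0.1). The numbers thus gave no sign of a pairing in these values, which a check of this kind cannot exclude. As a block they left the members' gene calls as they were, and the lost calls were Ces2a ENSMUST00000034346 in HFD against NFD (adjusted p = 0.0608) and Ces1f ENSMUST00000151261 in NAC_HFD against NFD (adjusted p = 0.142).

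Signs turned only for log2 fold changes that passed no threshold. With median-of-ratios scaling, NAC_HFD against HFD became 0.059 for Ces1c, 0.070 for Ces1g and 0.0076 for Ces1e ENSMUST00000175983. With quantile normalization, HFD against NFD became -0.071 for Ces3a, NAC_HFD against HFD 0.049 for Ces1g, and NAC_HFD against NFD -0.0035 for Ces1c and -0.020 for Ces3a. With 1 library left out, HFD against NFD ranged from -0.028 to 0.089 for Ces3a, -0.0042 to 0.19 for Ces1d ENSMUST00000148340 and -0.33 to 0.046 for Ces1f ENSMUST00000133879. NAC_HFD against HFD ranged from -0.15 to 0.062 for Ces1g, -0.13 to 0.035 for Ces1c, -0.13 to 0.031 for its ENSMUST00000034189, -0.26 to 0.016 for Ces1e, -0.13 to 0.026 for Ces1d ENSMUST00000034172, -0.23 to 0.043 for Ces1e ENSMUST00000175983, -0.15 to 0.22 for Ces1c ENSMUST00000212091, -0.11 to 0.37 for Ces3a ENSMUST00000213054 and -0.0019 to 0.14 for Ces1g NONMMUT152303.1. NAC_HFD against NFD ranged from -0.026 to 0.43 for Ces1e, -0.11 to 0.12 for Ces1f, -0.0044 to 0.20 for Ces1c, -0.055 to 0.47 for Ces1e ENSMUST00000034173 and -0.014 to 0.23 for Ces1e ENSMUST00000175983.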

Other observations

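Of 14 tested ester and drug hydrolases of liver outside the carboxylesterase family, limma called 1 in HFD against NFD (2.78% of all genes), 0 in NAC_HFD against HFD (0.00%) and 1 in NAC_HFD against NFD (5.28%). Bphl, which cleaves amino acid ester drugs, rose in HFD, at 89.6 ± 7.51 TPM against 58.5 ± 5.55 TPM in NFD (log2 fold change 0.61, limma adjusted p = 0.0143), and Afmid, a formamidase of tryptophan breakdown, rose in NAC_HFD, at 86.8 ± 7.21 TPM against 63.9 ± 5.04 TPM in NFD (log2 fold change 0.44, limma adjusted p = 0.0247). Log2 fold changes were above 0 for 12, 3 and 7 of the 14 in these comparisons, against 52.7%, 31.5% and 37.5% of all genes. The list's median log2 fold changes were 0.14 in HFD against NFD, -0.20 in NAC_HFD against HFD and -0.04 in NAC_HFD against NFD, where those over all genes were 0.01, -0.08 and -0.07.

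Of 11 genes of very low density lipoprotein assembly, all tested, limma called 0 in HFD against NFD (2.78% of all genes), 0 in NAC_HFD against HFD (0.00%) and 1 in NAC_HFD against NFD (5.28%). That one was Dgat1, which makes triglyceride, at 6.84 ± 1.16 TPM in NAC_HFD and 10.1 ± 0.640 TPM in NFD (log2 fold change -0.51, limma adjusted p = 0.0212). Apoe, the most abundant gene of this list, averaged 11357 ± 485 TPM in NAC_HFD, 11754 ± 1009 TPM in HFD and 9574 ± 539 TPM in NFD. The median log2 fold changes of this list were 0.11, -0.09 and -0.01 in the 3 comparisons.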
